A study of Mus musculus with 13 samples.

Results

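Of the 208 adult neurons that the authors kept, their annotation assigns 166 to clusters 1 to 5 and labels 42 as excluded. The 42 excluded neurons, taken by that label alone from the 586 kept neurons of the series, are described here against the 166 neurons of the main clusters. The label pools neurons that the study assigned to non-proprioceptor classes with those of its smallest clusters, and the annotation does not tell them apart. All 208 neurons came from dorsal root ganglia of adult *PVRx3:tdT* mice of either sex (PV:Cre+/-;Rx3:Flp+/-;Ai65+/-), past postnatal day 56. No group was treated, and the groups differ in their cluster label only. The reporter tdTomato marks a cell that has switched on both PV (*Pvalb*) and Rx3 (*Runx3*) at any time, so it does not require either gene to be active in the adult. Each well of a 96-well plate received a single viable fluorescent neuron, and the 5 adult plates are called replicates 1 to 5 here. The adult samples came from 6 animals in all, and the animals of each plate are not given. The plates outnumber the experiments they came from, so some plates share one, and p-values measure the spread between plates only.

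Proprioceptors are the sensory neurons that report muscle length and tension from muscle spindles and Golgi tendon organs. They depend on the neurotrophin receptor gene *Ntrk3* and the transcription factor genes *Runx3* and *Etv1*, and they contain the calcium buffer parvalbumin. Other neurons of the ganglia serve touch, temperature and pain, and peptides such as substance P and CGRP are best known from the pain-sensing ones.

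The excluded neurons carried proprioceptor genes, 5 of 9 of them at lower levels than in the main neurons. Over all genes tested 5.27% were lower. The excluded neurons also carried genes that were scarce in most main clusters. Summed by plate, they were higher for the peptide genes *Calcb* and *Tac1*, for *Hspb1*, *Fxyd7*, *Crip2* and *Lxn*, and for the channel gene *Asic3*. They were lower for *Spp1*, *Heg1*, *Sv2a* and the potassium channel gene *Kcnc1*. Of the 42, 6 had no UMI of *Etv1*, which had a UMI in all 166 main neurons.

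The plates held between 6 and 10 excluded neurons each. They made up 11.5%, 17.0%, 23.3%, 25.0% and 35.0% of the kept neurons of replicates 1 to 5. The exact 95% binomial interval ran from 4.35% to 23.4% for replicate 1 and from 15.4% to 59.2% for replicate 5, which overlap, and covers counting error only. Excluded neurons held a mean of 24933, 13371, 58159, 57598 and 33007 UMIs (unique molecular identifiers, counted once per captured RNA molecule) on replicates 1 to 5. The main neurons of the same plates held 38749, 38012, 53698, 60377 and 43190. The mean was lower for excluded neurons on 4 of 5 plates, a log2 difference of -0.50 ± 0.63 (SD, n = 5), and an exact sign-flip test over plates gave p = 0.188 (two-sided, with 0.0625 as the smallest p that 5 plates allow). Depth moved with the plates, being lowest for excluded neurons on replicates 1 and 2, and its part in the results below was not tested except by thinning every neuron to 7000 UMIs. No neuron fell below that depth. The same well barcodes served every plate, and the 42 neurons used 36 barcodes, of which 6 occurred among excluded neurons of more than 1 plate.

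Levels below are CPM of the UMIs summed over the neurons of a group on a plate. Differences are log2 values, excluded minus main neurons, with their SE, from edgeR with the plate as a block. Of 6408 genes tested, 654 (10.2%) passed an adjusted p of 0.05, 316 higher (4.93%) and 338 lower (5.27%) in the excluded neurons. Without the filter on low counts the balance differed, with 295 higher and 741 lower. The count was 359 without replicate 3, 212 without the plate term, 385 with DESeq2, 145 of 1474 genes tested after thinning and 547 of 5957 without the 6 neurons that lack *Etv1*. The labels were made by clustering these same neurons, so the fit says how far the plates repeat a difference and is no independent test that the groups differ. The 5 values of the excluded neurons all lay above those of the main neurons for 176 genes (2.75%) and all below for 173 (2.70%).

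Among 9 proprioceptor genes tested, 5 were lower in the excluded neurons and none was higher (median -0.62, against 0.00 over all genes). Of all genes tested, 5.27% were lower. The label takes in neurons that the study assigned to non-proprioceptor classes, so lower levels of these genes may be partly built into it. *Etv1* (chromosome 12, 38779380 to 38870484, GRCm38), a transcription factor of proprioceptors, stood at 241, 291, 187, 248 and 316 CPM in the excluded neurons of replicates 1 to 5. In the main neurons it stood at 510, 456, 478, 435 and 417. The groups did not overlap, and the difference was -0.90 ± 0.12 (adjusted p = 1.30e-04, edgeR). *Whrn*, which encodes the scaffold protein whirlin, was at 66.8, 49.9, 51.6, 50.3 and 86.6 CPM against 110, 95.7, 121, 91.1 and 114. These values did not overlap either, with a difference of -0.88 ± 0.17 (adjusted p = 0.00278, edgeR), but the adjusted p was 0.0661 without the 6 neurons that lack *Etv1*. *Pvalb* had a UMI in all 42 excluded neurons and a mean of 1460 ± 362 CPM against 2177 ± 332 (SD, n = 5), a difference of -0.62 ± 0.09 (adjusted p = 2.02e-04, edgeR, and 0.131 without the plate term). *Nefh*, the heavy neurofilament gene, differed by -0.62 ± 0.09 (adjusted p = 2.39e-04, edgeR, and 0.121 without the plate term), and by -0.33 with the 5 main clusters weighted equally (adjusted p = 0.0198).

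The other members of that list did not pass the test. *Ntrk3* had a UMI in 41 of 42 excluded neurons and averaged 452 ± 128 CPM against 461 ± 31.1 (SD, n = 5). *Runx3* differed by 0.19 ± 0.25, the vesicular glutamate transporter gene *Slc17a7* by -0.09 ± 0.13 and the mechanically gated channel gene *Piezo2* by 0.02 ± 0.13. The fifth lower member was *Spp1* (osteopontin, a secreted phosphoprotein; chromosome 5, 104435118 to 104441050, GRCm38). It stood at 114, 158, 249, 833 and 208 CPM in the excluded neurons and at 1175, 1271, 2245, 1962 and 1818 in the main neurons. No plate overlapped, although replicate 4 was well above the other excluded sums, and the difference was -2.57 ± 0.23 (adjusted p = 2.70e-06, edgeR).

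*Tac1* and *Scn7a* had been named as marks of the excluded neurons, and both were higher. *Tac1*, the precursor gene of substance P (chromosome 6, 7554879 to 7565834, GRCm38), stood at 127, 199, 67.1, 12.2 and 377 CPM in the excluded neurons of replicates 1 to 5. The main neurons of those plates had 42.6, 25.7, 5.64, 1.66 and 44.5 CPM. The excluded neurons were higher on every plate, yet the groups overlapped, because the level of both moved with the plate. The difference was 2.71 ± 0.25 (adjusted p = 3.60e-06, edgeR), and without the plate term the adjusted p was 0.113. A UMI of *Tac1* was found in 25 of 42 excluded neurons (59.5%) and 46 of 166 main neurons (27.7%).

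*Scn7a* encodes a channel-like protein that senses sodium (chromosome 2, 66673425 to 66784914, GRCm38). It stood at 201, 199, 113, 74.7 and 95.2 CPM in the excluded neurons, against 62.3, 78.3, 51.9, 34.2 and 55.2. It was higher on all 5 plates with an overlap in range, and it differed by 1.21 ± 0.17 (adjusted p = 1.30e-04, edgeR). Without the 6 neurons that lack *Etv1* it differed by 0.77 and lost its call (adjusted p = 0.0971, edgeR). *Scn7a* was detected in 37 excluded neurons (88.1%) and 108 main neurons (65.1%). The share with an *Scn7a* UMI differed by 24.9 ± 17.0 percentage points (SD, n = 5 plates), and after thinning by 24.9 ± 29.5, a spread larger than the difference. The share with a *Tac1* UMI differed by 35.3 ± 13.9 percentage points, and by 36.3 ± 21.4 after thinning.

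**Figure D1:**
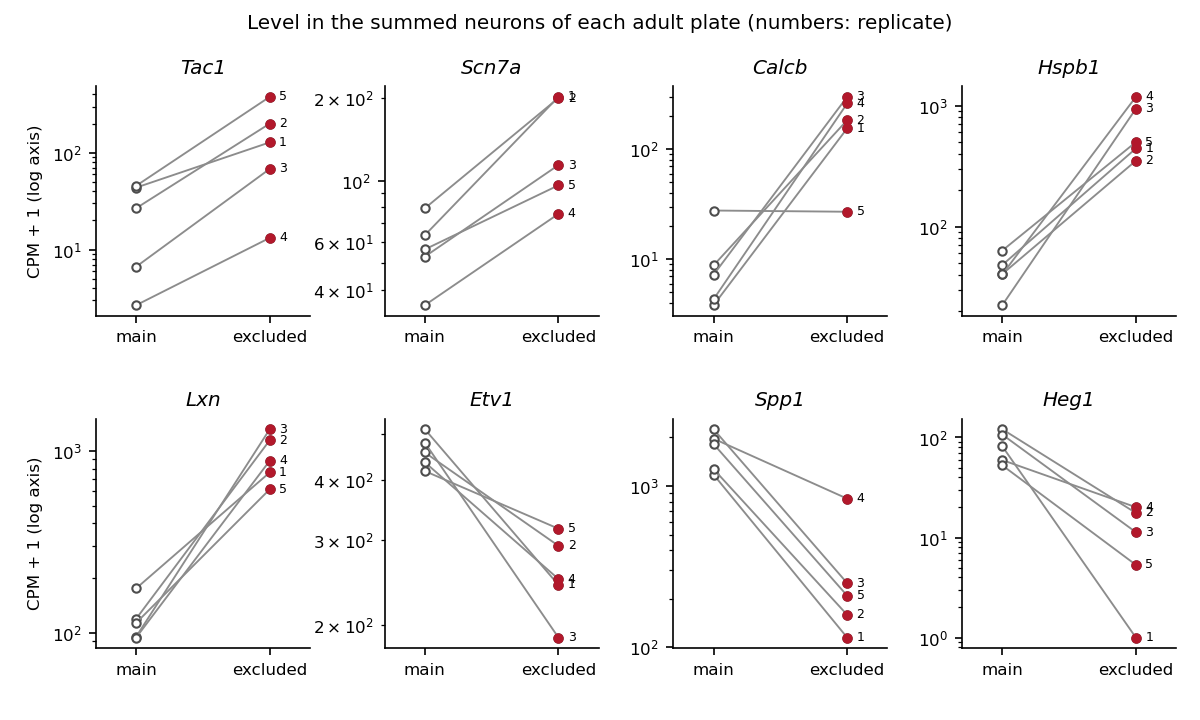
CPM + 1 on log axes for 8 genes, in the summed main neurons (open circles) and the summed excluded neurons (red) of each adult plate, with lines joining the values of 1 plate and numbers giving the replicate. *Tac1*, *Scn7a*, *Hspb1* and *Lxn* rise along every line, *Calcb* does so on 4 of 5 plates, and *Etv1*, *Spp1* and *Heg1* fall along every line.

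The 15 largest rises began with *Calcb*, which encodes the beta form of CGRP (chromosome 7, 114718643 to 114723365, GRCm38). It stood at 154, 183, 299, 260 and 26.0 CPM in the excluded neurons and at 2.81, 7.77, 6.21, 3.31 and 26.7 in the main neurons. The groups were far apart on replicates 1 to 4 and level on replicate 5, and the fit gave 4.76 ± 0.49 (adjusted p = 9.09e-06, edgeR). *Calcb* was found in 18 excluded neurons (42.9%) and 19 main neurons (11.4%). Without the 6 neurons that lack *Etv1* the difference was 3.65 (adjusted p = 2.67e-04, edgeR).

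*Hspb1*, a small heat shock protein gene (chromosome 5, 135887919 to 135889563, GRCm38), stood at 441, 349, 939, 1179 and 498 CPM against 47.1, 39.5, 21.4, 39.2 and 62.3. No plate overlapped, and *Hspb1* differed by 4.09 ± 0.28 (adjusted p = 1.26e-07, edgeR). Of the 4 heat shock genes tested it was the only one called, where 10.2% of all genes were called. *Fxyd7*, which encodes a small regulator of the sodium pump, averaged 1312 ± 402 CPM against 96.8 ± 55.9 (SD, n = 5) and differed by 3.95 ± 0.35 (adjusted p = 2.51e-06, edgeR).

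*Lxn*, the gene of the carboxypeptidase inhibitor latexin (chromosome 3, 67457998 to 67463926, GRCm38), was the one leading gene with a UMI in all 42 excluded neurons. Its levels were 762, 1147, 1319, 884 and 615 CPM in the excluded neurons against 174, 118, 93.7, 92.8 and 112 in the main neurons, of which 129 of 166 had a UMI. The lowest excluded sum lay well above the highest main sum, and *Lxn* differed by 3.03 ± 0.18 (adjusted p = 2.79e-08, edgeR). *Crip2*, which encodes a protein with LIM domains, stood at 448, 681, 837, 757 and 467 CPM against 79.7, 72.3, 73.4, 35.9 and 130. It had a UMI in 36 excluded neurons and differed by 3.15 ± 0.24 (adjusted p = 3.80e-07, edgeR). *Lxn* overlaps *Gfm1* on the other strand in the annotation.

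*Asic3*, an acid-sensing ion channel gene of sensory neurons, stood at 127, 125, 110, 90.3 and 51.9 CPM against 3.93, 10.8, 15.2, 7.18 and 14.2. The groups did not overlap, *Asic3* differed by 3.34 ± 0.30 (adjusted p = 2.70e-06, edgeR), and 18 excluded and 22 main neurons had a UMI. *Sorl1*, an endosomal sorting receptor gene, averaged 53.4 ± 38.7 CPM against 2.40 ± 0.948 (SD, n = 5) and was found in 16 excluded neurons. The remaining rises were *Tusc5* (3.56), a gene of glucose transporter trafficking, *Rprm* (2.94), *Gcnt2* (2.86), a glycosyltransferase gene, and *Camk2n1* (2.71), an inhibitor of CaM kinase. They also took in the peripheral myelin protein gene *Pmp22* (2.56), the chloride channel gene *Clic1* (2.45) and *Ntng1* (2.41), a netrin G that is held to the membrane. Of these, *Clic1* alone overlapped between the groups, through replicate 1 at 20.1 CPM. On replicates 1 and 2 cluster 4 held *Camk2n1* at 50.9 and 35.8 CPM, against 40.1 and 66.5 in the excluded neurons. It held *Clic1* at 37 and 35.8 CPM there, against 20.1 and 141.

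Among the 15 largest falls *Fam102b* led, with 26.7, 91.4, 25.8, 29.5 and 17.3 CPM in the excluded neurons against 291, 346, 256, 194 and 146. It did not overlap and differed by -2.88 ± 0.19 (adjusted p = 7.00e-08, edgeR). *Heg1*, which encodes a membrane protein with EGF-like domains and was highest in cluster 2, stood at 0, 16.6, 10.3, 19.1 and 4.33 CPM against 80.8, 120, 106, 58.5 and 51.7. Clusters 4 (23.1 and 29.9 CPM) and 5 (at most 10.5 CPM) were low in *Heg1* too, and 19 of 28 and 25 of 31 of their neurons had no UMI of it; neither differed from the excluded neurons by the test. A UMI of *Heg1* was present in 11 excluded and 119 main neurons, and the difference was -2.76 ± 0.32 (adjusted p = 2.99e-05, edgeR).

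Both *Sv2a* and *Syt7* belong to the machinery of vesicle release. *Sv2a*, a synaptic vesicle glycoprotein gene, stood at 6.68, 16.6, 18.9, 20.8 and 51.9 CPM against 148, 189, 145, 133 and 139 and differed by -2.66 ± 0.24 (adjusted p = 2.90e-06, edgeR). *Syt7*, a calcium sensor of vesicle fusion, averaged 6.52 ± 3.74 CPM against 43.7 ± 10.6 (SD, n = 5). Both were lower without overlap, but *Syt7* was also low in cluster 4, at 13.9 and 5.97 CPM, where *Sv2a* stood at 104 and 108. *Kcnc1*, the Kv3.1 potassium channel gene of fast-spiking neurons, stood at 53.5, 91.4, 89.4, 43.4 and 99.5 CPM against 274, 291, 350, 311 and 329, and differed by -2.16 ± 0.16 (adjusted p = 3.00e-07, edgeR).

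The other falls were *Calb2* (-2.76), the calretinin gene, *Rasd2* (-2.72), a small GTPase gene, *Klhdc8a* (-2.63), the lipoprotein receptor gene *Vldlr* (-2.54) and the filament gene *Vim* (-2.45). *Atrip* (-2.35), a partner of the ATR kinase, *Pfkfb3* (-2.17), an enzyme that drives glycolysis, *Cachd1* (-2.12) and *Chn2* (-2.05), a Rac regulator, completed them. *Calb2*, which is high in cluster 1, turned to 0.66 with the 5 main clusters weighted equally (adjusted p = 0.627, edgeR) and was -6.40 without replicate 4, where the excluded neurons held 43.4 CPM (at most 8.31 on the other plates). *Atrip* (adjusted p = 0.343, edgeR) and *Cachd1* (0.266) also lost their calls with equal weights, and *Chn2* did without replicate 3 (0.0551). In cluster 4, *Rasd2* (11.6 and 5.97 CPM), *Atrip* (2.31 and 5.97), *Pfkfb3* (11.6 and 5.97) and *Cachd1* (2.31 and 0) were low too. *Klhdc8a* (48.5 and 47.8) and *Chn2* (23.1 and 41.8) were higher there. In cluster 5, *Rasd2* (at most 11.1 CPM) and *Chn2* (at most 13.3) were low. *Atrip* overlaps Trex1 on the same strand.

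Of 97 genes listed by potassium channel symbols 26 were tested, 1 of them the non-coding *Kcnq1ot1* (-0.21), and 6 were higher, 7 lower and 13 not called (median -0.14). Over all genes 4.93% were higher and 5.27% lower. Higher were *Kcna6* (1.90 ± 0.31), a Kv1 channel, its beta subunit *Kcnab1* (1.34 ± 0.24) and the A-current partners *Kcnip4* (1.27 ± 0.22) and *Kcnip3* (1.13 ± 0.31). *Kcnd1* (0.83 ± 0.18) and *Kcnh7* (0.59 ± 0.17) were higher as well. Besides *Kcnc1*, the lower ones included *Kcnj11* (-1.82 ± 0.44), *Kcnb2* (-1.02 ± 0.14), *Kcnip1* (-0.99 ± 0.23), the leak channel gene *Kcnk1* (-0.83 ± 0.11) and *Kcns1* (-0.50 ± 0.14).

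Most genes of the sodium channel, calcium channel, GABA-A and glutamate receptor lists did not pass the test. Their counts are small and were not tested against the share called among all genes, 10.2% (4.93% higher and 5.27% lower). Of 6 sodium channel genes tested, *Scn7a* and the beta subunit gene *Scn4b* (0.58 ± 0.14) were higher and none was lower. *Scn1a* (0.18), *Scn8a* (-0.30) and *Scn9a* (0.27) did not pass the test. Of 6 calcium channel subunits only *Cacnb3* was called, at 0.89 ± 0.27 (adjusted p = 0.0494, edgeR), and none of 4 GABA-A receptor genes. Among 9 genes listed by glutamate receptor symbols, 1 of them the receptor-associated *Grina* (-0.06), *Grik4* was higher (1.29 ± 0.36) and *Gria2* lower (-0.68 ± 0.19).

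The sensory transcription factors held no gene with a higher call and 4 lower ones of 10 tested, where 5.27% of all genes were lower. They were *Etv1*, *Shox2* (-0.93 ± 0.18) and the estrogen-related receptor genes *Esrrg* (-1.76 ± 0.24) and *Esrrb* (-1.84 ± 0.40). *Esrrg* averaged 27.0 ± 19.3 CPM against 84.7 ± 28.9 and *Esrrb* 7.75 ± 6.50 against 31.9 ± 3.56 (SD, n = 5). Of the 6 filament genes, *Prph*, which encodes peripherin and is typical of small sensory neurons, was higher at 1181 ± 80.5 CPM against 693 ± 74.4, without overlap (0.75 ± 0.07, adjusted p = 5.30e-06, edgeR). *Vim* and *Nefh* were lower. Of 15 synaptic genes *Vamp2* (0.96 ± 0.20) and *Syn2* (0.56 ± 0.16) were higher and *Syt7* lower. Over all genes 4.93% were higher and 5.27% lower, and the short lists of this paragraph were not tested against those shares. Of 4 Hox genes *Hoxc8* was lower (-0.99 ± 0.30), and of 3 injury genes *Atf3* was higher (0.96 ± 0.25). No immediate early gene (3 tested) and no nuclear RNA (3 tested) was called.

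Among genes of the respiratory chain, those that passed the test were lower, by small amounts. Of 67 nuclear subunits of oxidative phosphorylation tested, 25 were lower, 42 were not called and none was higher (median -0.21), where 5.27% of all genes were lower. *Ndufb10* averaged 1312 ± 273 CPM against 1744 ± 334 (-0.43 ± 0.07) and *Atp5g1* 1883 ± 454 against 2583 ± 236 (-0.49 ± 0.08). Of 18 genes of the mitochondrial genome, 10 were lower, 8 were not called and none was higher (median -0.36), among them *mt-Co1* (-0.45 ± 0.08) and *mt-Cytb* (-0.30 ± 0.06). The summed level of the mitochondrial genes was lower in the excluded neurons on all 5 plates, between 18016 and 24706 CPM against 23614 and 28825. Of 61 ribosomal protein genes tested, 2 were higher and 1 lower (median 0.14), where 4.93% of all genes were higher and 5.27% lower. Their summed level was higher on all 5 plates without overlap, between 15459 and 16377 CPM against 13479 and 15123. Most of the respiratory calls were lost without the plate term, as for *Ndufb10* (adjusted p = 0.309, edgeR) and *mt-Co1* (0.483).

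**Figure D2:**
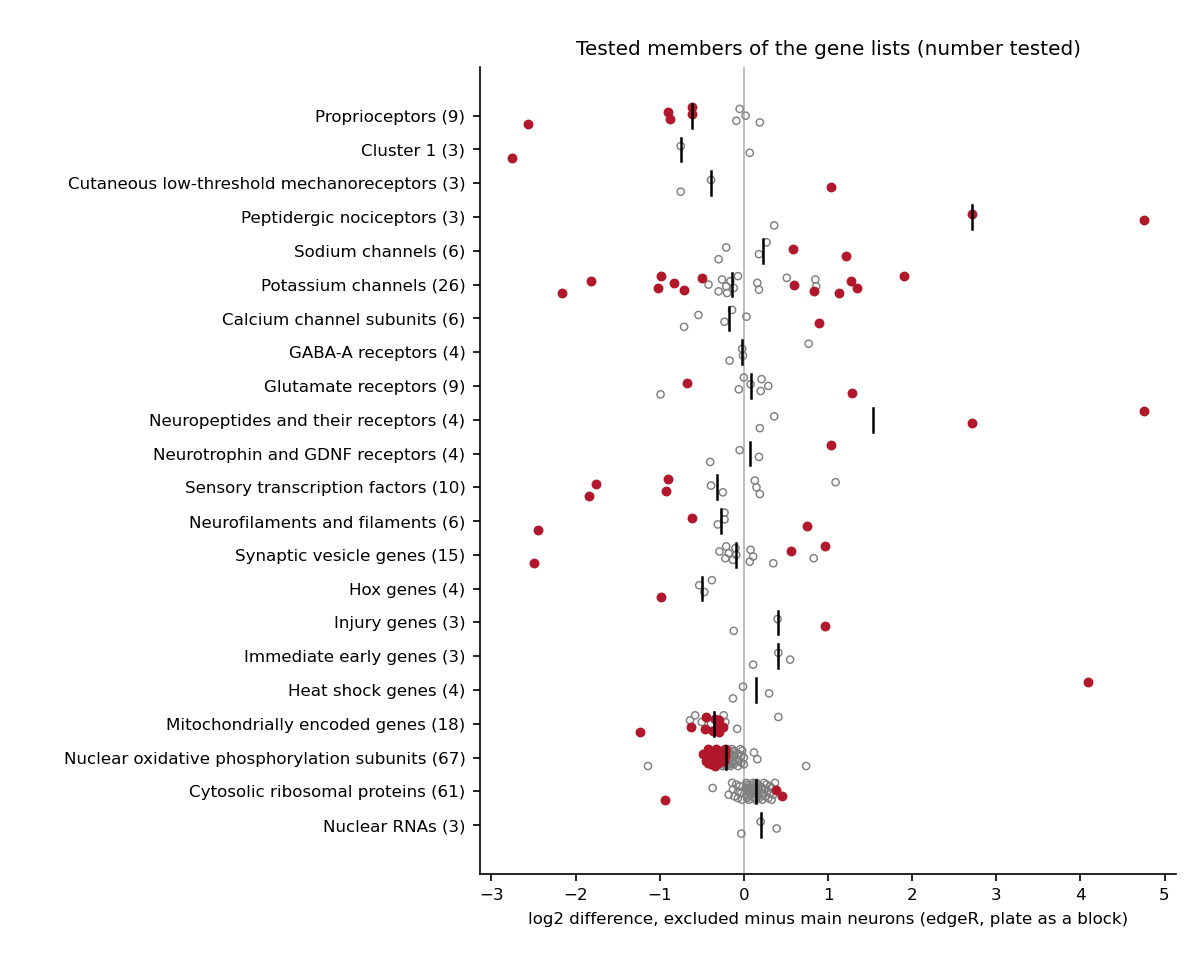
The log2 difference of each tested gene (excluded minus main neurons) in the lists with at least 3 tested genes, with called genes in red, other genes as open circles and the median of a list as a black bar. The oxidative phosphorylation and mitochondrial lists lie mostly below 0 in a narrow band, while potassium channel genes spread to both sides.

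Markers of other cells were examined in the same sums, where 4.93% of all genes tested were higher in the excluded neurons. Of 9 peptidergic nociceptor markers 3 could be tested, and *Tac1* and *Calcb* were higher while *Adcyap1* was not called (0.36). Defining markers of those neurons were near 0. *Scn10a* had no UMI in any of the 208 neurons, against 129 UMIs over all wells of the 13 tables, *Calca* had a UMI in 4 of 42 excluded neurons and *Trpv1* in 1. Of 9 markers of cutaneous low-threshold mechanoreceptors, *Ret*, the GDNF receptor gene, was the 1 higher of 3 tested, at 66.8, 24.9, 96.3, 148 and 21.6 CPM against 46.6, 40.1, 32.7, 43.1 and 32.1. *Ret* was higher on 3 of 5 plates (1.04 ± 0.28, adjusted p = 0.0257, edgeR) and called in 6 of 11 alternatives. The call was lost without the plate term (adjusted p = 0.188, edgeR), with DESeq2, without replicate 3 (0.233), without replicate 4 (0.27) and without the 6 neurons that lack *Etv1* (0.37, adjusted p = 0.578). *Maf* (-0.39) and *Calb1* (-0.75) were not called, and *Cacna1h* had no UMI in the 208 neurons, against 135 over all wells. *Mafa* was at 0 in every well of the series, so its 0 is not read. Markers of other small-diameter neurons summed to between 26.0 and 58.2 CPM in the excluded neurons against 10.7 to 25.8, higher on all 5 plates, with none passing the filter for the test.

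The authors left wells with high glial marker genes, *Apoe* among them, out of the annotation of kept neurons, while the deposited counts still include them. Among the kept neurons the satellite glia list did not separate the groups. It summed to between 108 and 801 CPM in the excluded neurons and between 236 and 750 in the main neurons, higher on 3 of 5 plates, and *Apoe* (-0.64) and *Fabp7* (-0.80) were not called. Of 7 Schwann cell markers *Pmp22* was the 1 tested and was higher. The summed list held 43.3 to 199 CPM against 16.0 to 62.3, higher on 4 of 5 plates and lower on replicate 5. *Mbp*, a myelin gene, had a UMI in 12 excluded neurons. Markers of fibroblasts and vessels (at most 73.9 CPM) and of immune and blood cells (at most 8.66 CPM) stayed low.

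The sums do not show how single excluded neurons varied. The neurons named in this paragraph and the next were chosen after their values were seen, so they are described and not tested. All 6 neurons without an *Etv1* UMI also lacked a *Whrn* UMI. Of these, 5 were deep (60167 to 109445 UMIs, on replicates 3 and 4), so that 0 UMIs allow at most 27.4 to 49.9 CPM by the limit of 3 counts, far below the 459 CPM of the main neurons. These 5 neurons had *Ret* at 50.7 to 399 CPM and *Calcb* at 276 to 1379 CPM. None of them had a *Tac1* UMI. *Hspb1* ran from 133 to 2534 CPM in them, and the lens and stress chaperone gene *Cryab* reached 868 to 1759 CPM in 4 of them. They kept *Pvalb* at 133 to 1737 CPM and *Ntrk3* at 228 to 1572 CPM. The sixth neuron was shallow (9928 UMIs, replicate 2) and had *Tac1* at 806 CPM, with a limit of 302 CPM for its missing *Etv1*.

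A neuron of replicate 4 with 74760 UMIs had the lowest *Pvalb*, at 80.3 CPM, with no *Ntrk3* UMI, *Etv1* at 80.3 CPM and *Hspb1* at 3451 CPM. In all, 4 excluded neurons and no main neuron had *Pvalb* under 500 CPM. *Whrn* had no UMI in 15 excluded neurons (35.7%) and 12 main neurons (7.23%), of which 5 were in cluster 4 and 6 in cluster 5. Cluster 5 held 33.0 to 92.1 CPM of *Whrn* over the plates, against 49.9 to 86.6 in the excluded neurons, a difference that was not called. *Calcb* had a UMI in 18 excluded neurons, and 9 of them also had a UMI of *Tac1*, including all 5 on replicate 5. *Tac1* exceeded 100 CPM in 19 excluded neurons and *Calcb* in 11, and both did in 2. Of the 25 neurons with a *Tac1* UMI, 17 also had a UMI of *Nxph1*, a gene of clusters 2 to 4, and 23 had one of *Scn7a*. *Hspb1* exceeded 100 CPM in 25 excluded neurons (59.5%) and 10 main neurons (6.02%), of which 8 and 1 also had *Tac1* above 100 CPM. *Spp1* exceeded 500 CPM in 8 excluded neurons (19.0%), 5 of them on replicate 4, and in 125 main neurons (75.3%).

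**Figure D3:**
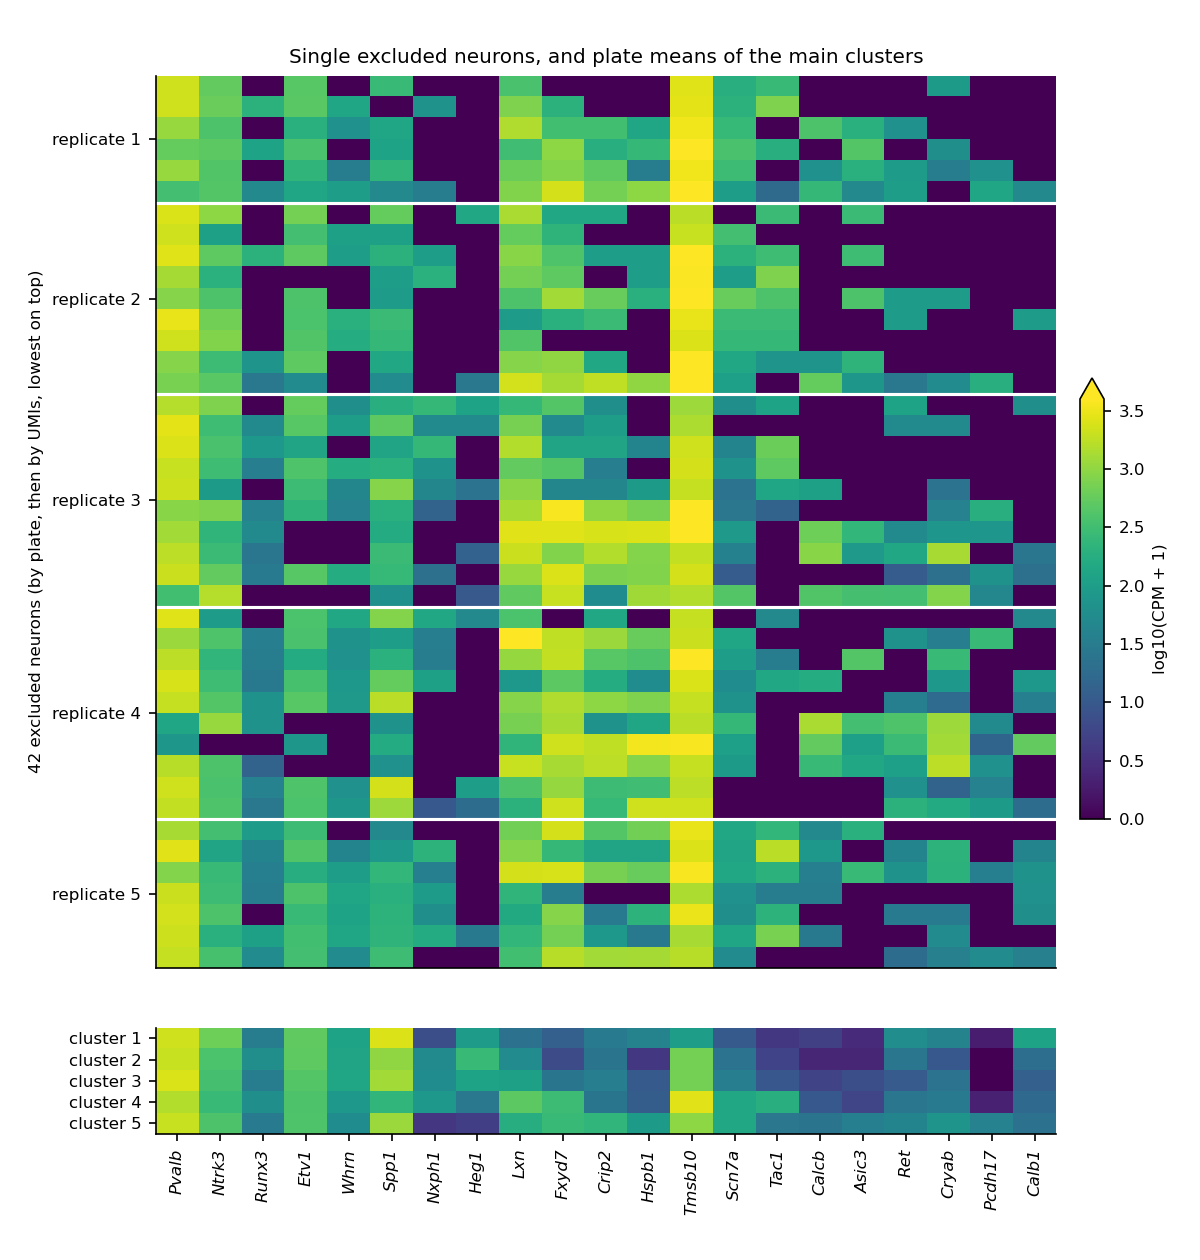
log10(CPM + 1) of 21 genes in each of the 42 excluded neurons (upper panel, rows by plate and then by UMIs) and the mean over plates in clusters 1 to 5 (lower panel, log10 of the mean CPM + 1). *Lxn* and *Pvalb* are present in every excluded neuron, whereas *Tac1* and *Calcb* are each absent from many rows, and rows without *Etv1* lie on replicates 2, 3 and 4.

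The excluded neurons were next set against each cluster in 1 fit of 7428 genes over sums of at least 2 neurons. They differed from cluster 1 in 1264 genes (17.0%), with 658 higher (8.86%) and 606 lower (8.16%) in the excluded neurons. For cluster 3 the number was 650 (8.75%), with 308 higher (4.15%) and 342 lower (4.60%). For cluster 2 it was 322 (4.33%), with 121 higher (1.63%) and 201 lower (2.71%). The fewest came from cluster 5, with 247 (3.33%), 127 higher (1.71%) and 120 lower (1.62%), and cluster 4, with 93 (1.25%), 39 higher (0.525%) and 54 lower (0.727%). These counts depend on the plates a cluster occupies. Clusters 2 and 4 had sums on replicates 1 and 2 only, cluster 3 on 4 plates and clusters 1 and 5 on 5. Cluster 4 gave 4 genes without replicate 1 and 41 without replicate 2, cluster 2 gave 93 and 96, cluster 3 gave 324 without replicate 3, and cluster 5 gave 156 without replicate 3.

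Several leading genes of the excluded neurons were also present in cluster 4. *Tac1* averaged 156 ± 141 CPM in the excluded neurons (SD, n = 5 plates) and 185 ± 25.9 in cluster 4 (n = 2 plates), a difference of -0.68 that was not called (adjusted p = 0.663, edgeR). In clusters 1, 2, 3 and 5 it averaged 2.79, 4.28, 8.37 and 25.4 CPM, all called lower than the excluded neurons. The cluster 5 mean came from 3 neurons of replicate 5 at 123 CPM, with at most 4.20 CPM on the other plates, and without that plate the difference was 5.99. The call against cluster 2 was lost without replicate 1 (adjusted p = 0.0807, edgeR) and without replicate 2 (0.273). *Lxn* was at 945 ± 286 CPM against 499 ± 114 in cluster 4 (0.93, adjusted p = 0.184, edgeR) and was called against the other 4 clusters. *Spp1* differed from cluster 4 by -0.17 in the fit (adjusted p = 0.954, edgeR). On replicates 1 and 2, the plates of cluster 4, it stood at 114 and 158 CPM against 238 and 227 there, lower on both. Over all 5 plates *Spp1* averaged 312 ± 296 CPM in the excluded neurons, lifted by replicate 4 at 833, and the other clusters averaged 1018 to 2569. *Scn7a* did not pass against cluster 4 (0.10) or cluster 5 (-0.15) and was higher than in clusters 1 to 3. These intervals are wide with 2 plates, and a missed threshold does not show equal levels.

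Other genes were called against every cluster. *Hspb1* was higher than in each cluster, by between 2.90 (cluster 5) and 6.82 (cluster 2), and its cluster levels lay between 2.85 and 90.1 CPM against 681 in the excluded neurons. *Crip2* was called against all 5 clusters, by 1.52 against cluster 5 and by 4.26 to 5.07 against the others. *Fxyd7* was called against all 5, by 2.24 to 7.20, and *Asic3* by 1.53 to 6.28. *Sv2a* was lower than in each cluster, by values from -1.65 to -3.11. Against cluster 4, *Hspb1* and *Crip2* kept their calls without replicate 1 (adjusted p = 0.0415 and 0.0133, edgeR) and without replicate 2. The calls of *Fxyd7* (0.312), *Asic3* (0.0722) and *Sv2a* (0.331) were lost without replicate 1, and that of *Asic3* also without replicate 2 (0.207). *Asic3* further lost its call against cluster 2 without replicate 2 (0.226) and against cluster 5 without replicate 4 (0.0547). *Calcb* was higher than in clusters 1, 2, 3 and 5 and missed the threshold for cluster 4 (3.65, adjusted p = 0.0517, edgeR). *Etv1* was lower than in clusters 1, 2, 3 and 5 (-0.75 to -1.07) and was not called against cluster 4 (-0.58, adjusted p = 0.151, edgeR).

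**Figure D4:**
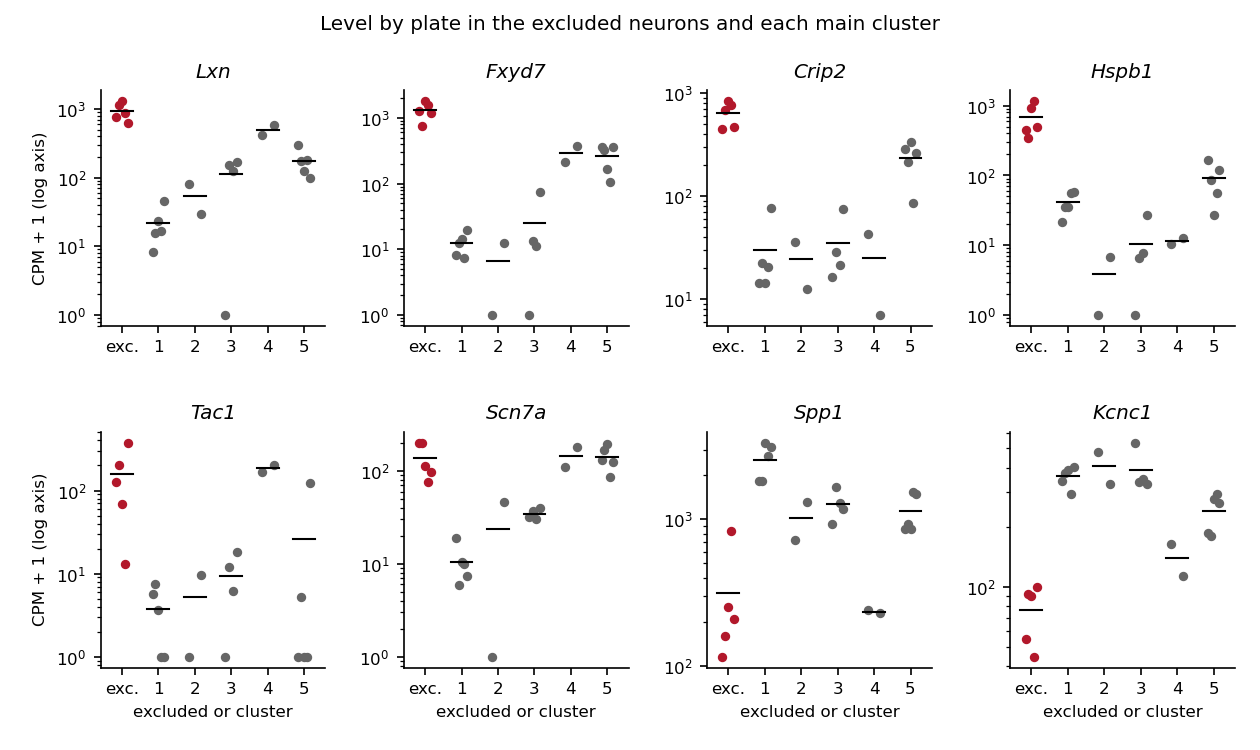
CPM + 1 on log axes for 8 genes, 1 point per plate with at least 2 neurons, in the excluded neurons (red) and clusters 1 to 5 (grey), with the mean as a black line. *Hspb1* and *Crip2* stand above every cluster mean, while *Tac1*, *Scn7a* and *Spp1* of the excluded neurons share the range of cluster 4. On replicates 1 and 2, the only plates of cluster 4, *Spp1* of the excluded neurons was below it.

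Genes at 0 in one group give bounds and not folds. *Agpat4*, a cluster 1 marker and acyltransferase gene, had no UMI among the 1658552 UMIs of the excluded neurons and 121 in cluster 1, at least 21.3-fold lower by a limit of 3 counts over the group. *Kcnd2*, the Kv4.2 channel gene, had none in the excluded neurons and 45 in cluster 5, at least 14-fold lower. *Fam131c* had none against 26 in cluster 1, at least 4.59-fold lower. In the other direction, *Rprm* had 64 UMIs in the excluded neurons and none in cluster 1 (at least 40.3-fold higher) or cluster 3 (at least 20.6-fold). *Pcdh17*, a protocadherin gene that marks cluster 5, had 83 UMIs and none in cluster 3 (at least 26.8-fold), where *Nptx1* was also at 0 (at least 17.1-fold). *Sorl1* and *Olfr373* were at 0 in cluster 4 (limit 5 CPM), and *Tspan8*, *Cidea* and *Fcgrt* in cluster 2 (limit 6.45 CPM). Those clusters had neurons on replicates 1 and 2 only, so no fold over all 5 plates is given for them. On these plates the excluded neurons held 40.1 and 116 CPM of *Sorl1* and 13.4 and 24.9 of *Olfr373*. They held 46.8 and 99.7 CPM of *Tspan8*, 13.4 and 166 of *Cidea*, and 46.8 and 66.5 of *Fcgrt*. *Tagln2* was at 0 in cluster 5 (at least 11.1-fold).

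The largest falls against clusters included *Heg1*, at 10.1 ± 8.04 CPM against 263 ± 50.9 in cluster 2 (-4.08 ± 0.40) and 120 ± 36.2 in cluster 3 (-3.34 ± 0.34). *Cartpt*, a peptide precursor gene, was called lower than in cluster 4 (adjusted p = 0.00964, edgeR). On replicates 1 and 2, the plates of cluster 4, it stood at 0 CPM in the excluded neurons against 69.3 and 71.7. The fitted -4.54 ± 0.91 therefore rests on zeros and is not read as a fold. The excluded neurons held 22.4, 22.6 and 4.33 CPM on replicates 3 to 5, where cluster 4 has no neurons. *Sult1a1*, an enzyme gene, was also called lower than in cluster 4 (-3.05), again with 0 CPM in the excluded neurons of replicates 1 and 2, against 37 and 11.9. *Rnpep* was called lower too (-3.23), but stood at 18.5 and 364 CPM on the 2 plates of cluster 4 and differed by -0.54 without replicate 2. *Cartpt* was not called without replicate 1 (adjusted p = 0.207, edgeR) or replicate 2 (0.17), nor *Sult1a1* without replicate 1 (0.655) or replicate 4 (0.0907). *Bcan*, a proteoglycan gene, was at 4.95 ± 3.17 CPM against 31.4 ± 14.8 in cluster 5 (-2.65 ± 0.50), and *Phkg1* (-4.89) was lower too, although cluster 5 ranged from 3.30 to 730 CPM, with the highest from 3 neurons, and *Phkg1* differed by -3.55 without replicate 5. *Calb2* was at 10.3 ± 18.8 CPM against 249 ± 105 in cluster 1 (-4.07 ± 0.40). *Myom2* (-4.40) and *Nfkbiz* (-4.22) were called lower than in cluster 2, but the sign turned to 4.48 for *Myom2* without replicate 2 and to 3.52 for *Nfkbiz* without replicate 1. *Carf* (-4.03) was called lower than in cluster 3, a value carried by replicate 3, since cluster 3 stood at 0, 271, 11.9 and 4.31 CPM on replicates 2 to 5 and the excluded neurons at 16.6, 3.44, 3.47 and 8.66. In cluster 3 *Fam65b* had 18 UMIs against 2 in the excluded neurons. In cluster 5, *Tmem176b* had 1 UMI against 32 in the excluded neurons and *Tspan8* 3 against 97, and *Calcb* had 3 in cluster 1 against 375.

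Each neuron was also correlated with the mean profile of each cluster, over 6078 genes with a UMI in at least 50% of the adult neurons and on log10(CPM + 1). This is a description, and depth and plate enter it. Of the 42 excluded neurons, 15 were nearest to cluster 5, 14 to cluster 3, 13 to cluster 4 and none to clusters 1 and 2. After thinning the numbers were 8, 19, 14 and, for cluster 1, 1. Main neurons were nearest to their own cluster in 142 of 166 cases, and in 124 after thinning. For neurons of cluster 5 this was 24 of 31, and 15 after thinning. The nearest cluster followed the plate. After thinning, 14 of the 15 excluded neurons on replicates 1 and 2 were nearest to cluster 4, which has no neurons on the other plates, and none of the 27 on replicates 3 to 5. The highest correlation of a thinned excluded neuron with any cluster had a median of 0.586, against 0.595 for main neurons. Within a plate, the median correlation between thinned excluded neurons was 0.362, 0.360, 0.371, 0.384 and 0.389 on replicates 1 to 5. On replicates 1 to 3 it was below that of every cluster with a value there (lowest 0.367, 0.366 and 0.375), and on replicates 4 and 5 it was within the range of the clusters.

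Replicates 1 and 2 hold clusters 2 and 4 and replicates 3 to 5 hold most of cluster 3, so the difference was also fitted within each set of plates. In replicates 1 and 2, 239 genes were called (3.73%), and in replicates 3 to 5, 412 (6.43%). Of the 654 genes called over all plates, 648 had the same sign in both sets, which is partly built in, since both sets enter the pooled value. *Hspb1* differed by 3.17 ± 0.38 and 4.65 ± 0.26, *Lxn* by 2.67 and 3.27, *Tac1* by 2.21 and 3.19, and *Spp1* by -3.21 and -2.37. A test of the difference between the sets called 2 genes (0.0312%), with 438 at an unadjusted p under 0.05 and 2 by DESeq2. They were *Ncbp3*, an RNA cap-binding protein gene, and *A330069E16Rik*, a transcript of unstated function. *Ncbp3* was higher in the excluded neurons of replicates 1 and 2, at 354 and 224 CPM against 13.5 and 23.9, and lower on replicates 3 to 5, at 20.6, 8.68 and 4.33 CPM against 102, 88.3 and 10.7 (difference 6.61 ± 0.50, adjusted p = 3.82e-06, edgeR). *A330069E16Rik* stood at 247 and 399 CPM against 977 and 1263 on replicates 1 and 2, and at 579, 719 and 783 against 592, 1008 and 693 on the others (difference -1.68 ± 0.22, adjusted p = 0.00385, edgeR).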

How the data were processed

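Single tdTomato neurons had been sorted by the authors into 96-well plates, reads were mapped with STAR to the mouse genome (mm10, GRCm38), and unique molecular identifiers were collapsed. The deposited tables hold counts of UMIs per gene and well, not normalized, beside an annotation of each kept neuron. All 339 genes whose symbol begins with U were at 0 in all 13 tables, so these genes, several respiratory chain subunits among them, are not measured here. The authors left out wells with few genes or with high glial marker genes such as *Apoe*. The sort put 1 neuron in a well, and no doublet caller was run.

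UMI counts were summed per plate over the excluded neurons, over all main neurons and over each cluster (at least 2 neurons), and tested with edgeR 4.0.16 (quasi-likelihood, TMM, low counts filtered by filterByExpr) in R 4.3.3, with the plate as a block, because both sums of a pair come from the same plate. P-values were adjusted by the Benjamini-Hochberg method over all genes tested, at 0.05. CPM is relative to all UMIs of a sum. The members and the gene lists were chosen with earlier results of these data known. The genes named were the 15 largest called rises and falls (predicted genes skipped), the marker genes, called members of the lists, the 3 largest called in each direction for each cluster, and the genes called between plate sets. Alternatives were no plate term, DESeq2 1.42.0, its size factors, no filter, thinning to 7000 UMIs, equal cluster weights and each plate left out. Leaving out the neurons that lack *Etv1*, and the thinned and own-plate correlations, were chosen after seeing the data. Gene positions are from the GRCm38 annotation. The scripts were tested on simulated data. Some items are not reported here.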

Additional observations from a re-analysis of the deposited data

Results flagged for a closer look

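Of 136 sets of 5 plate values examined, 15 held a plate whose gap to its nearest neighbour exceeded 0.71 of the range of the set, where chance gives about 1 set in 20. None of these was explained or tested further.

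In the excluded neurons, *Spp1* stood at 833 CPM on replicate 4, with 114 to 249 on the other plates. *Calb2* was also highest there, at 43.4 CPM against 0 to 8.31. On replicate 2, *Fam102b* reached 91.4 CPM against 17.3 to 29.5, *Cachd1* 16.6 against 3.44 to 6.94, and *Syt7* had 0 against 6.68 to 8.68. *Gcnt2* stood at 93.6 CPM on replicate 1 against 24.1 to 33.2, and *Rprm* at 60.2 on replicate 3 against 22.6 to 33.4.

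In the main neurons, replicate 5, which held the fewest of them, stood apart for 4 sets. *Calcb* was at 26.7 CPM there against 2.81 to 7.77, *Pmp22* at 35.6 against 7.29 to 14.7, *Vim* at 35.6 against 54.7 to 60.4, and the summed Schwann cell markers at 62.3 against 16.0 to 28.1. *Sv2a* was at 189 CPM on replicate 2 against 133 to 148, and *Klhdc8a* at 109 on replicate 3 against 81.9 to 89.1. The summed nuclear RNAs were at 8423 CPM on replicate 2 against 13411 to 14831, and the summed mitochondrial genes at 23614 on replicate 4 against 27334 to 28825.

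For 2 genes the difference between excluded and main neurons itself differed between replicates 1 and 2 and replicates 3 to 5. The change was 6.61 for *Ncbp3* and -1.68 for *A330069E16Rik* on the log2 scale.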

How the results depend on the processing

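Without the replicate block the comparison with all main neurons gave 212 genes, and those with clusters 1 to 5 gave 763, 179, 322, 46 and 112. The pairing lies in the plate that both sums share. Thinning gave 145 with all main neurons, 310, 66, 111, 24 and 50 with the clusters, and 8 between plate sets, over fewer genes tested. DESeq2 gave 385. No filter gave 1036 with all main neurons (295 higher, 741 lower), 216 with cluster 4 and 100 between plate sets. Leaving out 1 plate at a time gave 359 to 599 with all main neurons, 849 to 1133, 93 to 326, 324 to 640, 4 to 117 and 156 to 201 with clusters 1 to 5, 1 to 25 between plate sets, and a depth difference of -0.65 to -0.24.

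Thinning moved the difference in neurons with a UMI to 55.5 percentage points for *Lxn*, 42.5 for *Hspb1*, 57.5 for *Fxyd7*, 41.5 for *Crip2* and -18.4 for *Heg1*. At least 2 UMIs gave 35.1 for *Lxn* and 57.7 for *Fxyd7*. Nearest neurons fell to 8 for cluster 5 with thinning, and with means of the own plate they were 3 for cluster 5 and 25 for cluster 3. The own neurons of cluster 5 left it too, with 15 and 2 of 31 still nearest to it. The sign turned with equal cluster weights for *Calb2* (0.66), *Ntrk3* (0.24) and *Piezo2* (-0.12), for *Piezo2* without a filter (-0.15), and for *Slc17a7* without the neurons lacking *Etv1* (0.01), of which *Calb2* alone had been called. With 1 plate left out, *Runx3* ran from -0.03 to 0.29, *Ntrk3* from -0.21 to 0.04, *Slc17a7* from -0.22 to 0.00 and *Piezo2* from -0.07 to 0.11, with -0.04 without replicate 5. Against cluster 2, *Myom2* ran from -7.47 to 4.48 (without replicate 2) and *Nfkbiz* from -4.79 to 3.52 (without replicate 1). Apart from thinning and plates left out, the cause was not tested.

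Of 99 named and called genes, 33 were called under every alternative that tested them. The call was lost for 56 without the plate term, 26 with DESeq2, 7 without the filter, 14 with equal weights, 15 without the neurons lacking *Etv1*, 30 with thinning and 0 with the other size factors. Without replicates 1 to 5 in turn it was lost for 19, 16, 29, 24 and 10. Small sums limit precision, since 6 to 10 excluded neurons make up each plate.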
